A study of Mus musculus with 9 samples.

Results

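Nicotinic acetylcholine receptors were examined through 8 genes for neuronal subunits, Chrna3, Chrna4, Chrna5, Chrna6, Chrna7, Chrnb2, Chrnb3 and Chrnb4. These genes were found by their symbols, and all 8 were listed among the 23997 gene symbols of every library. Chrna2, also neuronal, was not among the 8 and is described with the other nicotinic subunits. In retinal ganglion cell (RGC) preparations from eyes with Moderate elevation of intraocular pressure (IOP), Chrna3 was higher than in Control and in Mild IOP. Chrna7 was lower in Moderate IOP than in Mild IOP. The most abundant subunits, Chrna6 and Chrnb3, passed no test between IOP levels, and no subunit passed a test between Mild IOP and Control.

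A nicotinic receptor is a ring of subunits around a cation channel that opens when acetylcholine binds between neighbouring subunits. The alpha 2, 3, 4 and 6 subunits form binding sites together with beta 2 or beta 4, the alpha 5 and beta 3 subunits are accessory members of such rings, and alpha 7 can form a receptor alone. In the retina, acetylcholine is released by starburst amacrine cells, and nicotinic receptors carry the spontaneous waves of the developing RGC layer. Receptors with alpha 6 and beta 3 are typical of visual projection neurons and are carried to RGC axon terminals.

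The cells came from C57BL/6J mice, given in the labels as 8 weeks old, in which the anterior chamber of the eye had received saline (Control) or polystyrene microbeads, which slow the outflow of fluid. Eyes were followed for 2 weeks and grouped by their IOP change, which stayed between −1 and 1 mmHg in Control, lay above 1 and below 4 mmHg in Mild IOP and was at least 4 mmHg in Moderate IOP. RGCs were purified by immunopanning on an antibody to the surface protein Thy1.2 after depletion of other retinal cells, with the transcription blocker actinomycin D in the buffers of every group. RNA from 12 Control, 12 Mild IOP and 6 Moderate IOP retinas was pooled by group and each pool was divided into 3 libraries, so that every p-value covers technical spread between libraries and every difference is one between pools.

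The estimates are FPKM, fragments per kilobase of transcript scaled to library size, which allow levels of different genes to be set side by side. FPKM were divided by a scaling factor per library (0.983 to 1.058), and all levels in the text are scaled FPKM, with group values as mean ± SD of 3 technical replicates. Depth derived from the confidence bounds of the estimates was 4810000 to 8680000 fragments per library. In Mild IOP replicate 2 a single gene held 20.5% of the summed FPKM and in Moderate IOP replicate 3 another held 9.1%, against 1.9% to 3.6% in the other 7 libraries. All 12 RGC markers were detected, with summed levels of 1740 to 1870 in Control, 1290 to 1590 under Mild IOP and 2610 to 2830 under Moderate IOP. Amacrine markers summed to 766 to 814, 842 to 900 and 546 to 597 in the same order, and rod markers to 410 to 502, 274 to 316 and 269 to 309. Most of the amacrine sum was Gad1, with group means of 549, 587 and 421. The 3 crystallin genes used as lens markers summed to 212 to 279 in Control, 0.394 to 1.2 under Mild IOP and 0 under Moderate IOP. In pooled RNA of this kind, fewer cells of a type and less RNA per cell cannot be told apart.

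**Figure D1:**
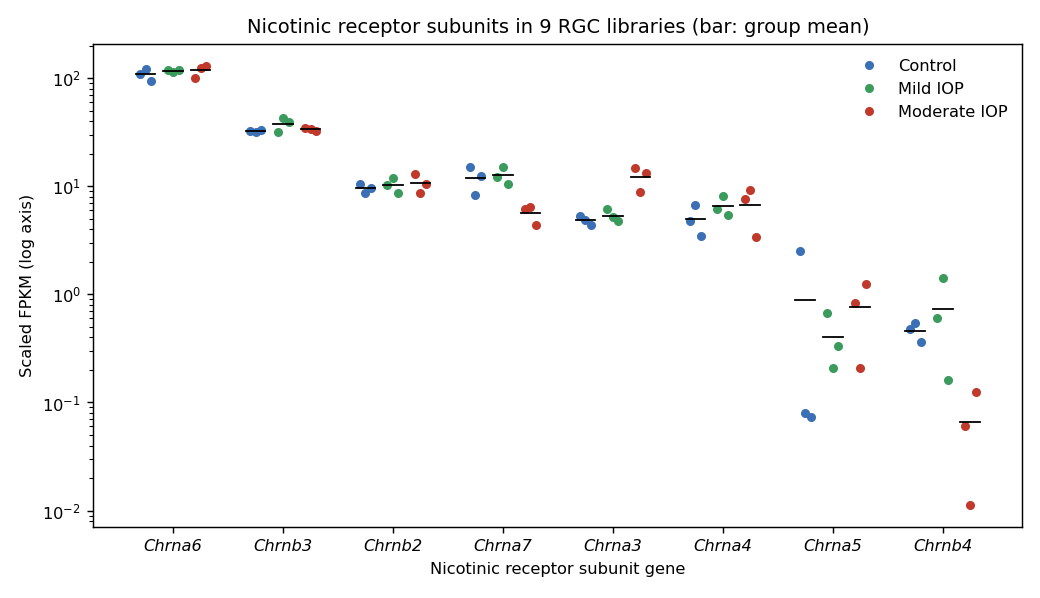
Scaled FPKM (log axis) of the 8 subunit genes in the 9 libraries, as 1 point per library coloured by group with a black bar at each group mean. Chrna6 lies near 100 in every library, Chrna3 is higher and Chrna7 lower in the Moderate IOP libraries, and Chrna5 and Chrnb4 spread over more than a factor of 10 at low levels.

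Chrna6 encodes the alpha 6 subunit and was the most abundant of the 8 genes in every library. Its locus spans chr8:27403212-27413944 on the reverse strand of mm10 (GRCm38). The 3 Control libraries held 109, 121 and 95.1, the Mild IOP libraries 119, 114 and 119, and the Moderate IOP libraries 100, 124 and 130. The ranges of all 3 groups overlapped, and 1380 to 3220 fragments stood behind each value. Only 6.85% of the 13043 tested genes had a higher mean level over the 9 libraries. Group means were 108 ± 12.8, 118 ± 2.72 and 118 ± 15.6. On the log2(scaled FPKM + 1) scale, Mild IOP differed from Control by 0.12 (95% interval −0.17 to 0.42), Moderate IOP from Control by 0.12 (−0.18 to 0.41) and Moderate from Mild IOP by −0.01 (−0.30 to 0.29). The false discovery rate (FDR, limma over all tested genes) was 0.83, 0.72 and 0.99 in turn, and the intervals reached at most 0.42 in size.

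Chrnb3 encodes beta 3, the accessory subunit that assembles with alpha 6, and followed Chrna6 in level in every library. The gene lies beside Chrna6 at chr8:27368711-27399730 on the forward strand, with 3481 bp between the ends of the 2 loci, which point toward each other. Its values were 32.6, 31.9 and 33.0 in Control, 31.8, 42.9 and 39.3 under Mild IOP and 34.9, 33.7 and 32.5 under Moderate IOP. Of the 9 libraries, Mild IOP replicates 2 and 3 stood highest, and Mild IOP replicate 1 lay just below the lowest Control library. The log2 differences were 0.21 (−0.10 to 0.52) for Mild IOP against Control, 0.05 (−0.26 to 0.36) for Moderate IOP against Control and −0.16 (−0.47 to 0.15) for Moderate against Mild IOP, with FDRs of 0.68, 0.90 and 0.56 (limma). The level of Chrna6 was 2.88 to 3.78 times that of Chrnb3 in Control libraries, 2.67 to 3.74 times under Mild IOP and 2.87 to 4.0 times under Moderate IOP.

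Chrnb2 encodes beta 2, the partner subunit of the common alpha 4 receptor of the brain and of the receptors behind developmental retinal waves. At chr3:89753448-89764632 on the reverse strand, it stood at 10.6, 8.65 and 9.70 in Control, 10.2, 11.9 and 8.59 under Mild IOP and 13.0, 8.76 and 10.5 under Moderate IOP. The groups overlapped throughout, with log2 differences of 0.07 (−0.37 to 0.51), 0.13 (−0.31 to 0.57) and 0.06 (−0.38 to 0.49) for Mild IOP against Control, Moderate IOP against Control and Moderate against Mild IOP. Chrna4, the gene for alpha 4 at chr2:181022311-181039177 on the reverse strand, spread more widely between technical replicates than Chrnb2. Its values were 4.77, 6.69 and 3.49 in Control, 6.20, 8.09 and 5.47 under Mild IOP and 7.65, 9.16 and 3.42 under Moderate IOP, from 79.1 to 360 fragments. In Moderate IOP a single library, replicate 3, lay below every Control library while the other 2 lay above them. The log2 differences of 0.36 (−0.35 to 1.08), 0.32 (−0.40 to 1.04) and −0.04 (−0.76 to 0.68) passed no test (FDR = 0.78, 0.68 and 0.96, limma).

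Chrna3 encodes alpha 3, which with beta 4 forms the receptor of autonomic ganglia and is also found in retinal neurons. Its locus is chr9:55011343-55026559 on the reverse strand, between Chrna5 and Chrnb4. The Control libraries held 5.30, 4.91 and 4.41 and the Mild IOP libraries 6.11, 5.17 and 4.76, whereas the Moderate IOP libraries held 14.9, 8.77 and 13.3. All 3 Moderate IOP libraries lay above all 6 others, and Moderate IOP replicate 2 was the lowest of the 3. The values rested on 67.9 to 142 fragments in Control, 81.9 to 138 under Mild IOP and 223 to 235 under Moderate IOP. The mean rose from 4.87 ± 0.446 in Control to 12.3 ± 3.18 in Moderate IOP, 2.53 times as high, against 5.35 ± 0.692 in Mild IOP.

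Chrna7 encodes alpha 7, which forms a channel of high calcium permeability. It spans chr7:63098692-63212526 on the reverse strand. The Control libraries held 15, 8.37 and 12.4, the Mild IOP libraries 12.3, 15.1 and 10.6, and the Moderate IOP libraries 6.23, 6.47 and 4.42. Every Moderate IOP library lay below every other library, and Control replicate 2 was the nearest to them. Fragments behind each value numbered 125 to 212 in Control, 117 to 206 under Mild IOP and 51.9 to 114 under Moderate IOP. Group means were 11.9 ± 3.35 in Control, 12.6 ± 2.28 under Mild IOP and 5.71 ± 1.12 under Moderate IOP, which was 0.451 times the Mild IOP level.

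Chrna3 and Chrna7 were the only subunits whose level passed a test, and the sequences upstream of these genes, which moved in opposite directions, are shown. The bases are from the RefSeq promoter table on GRCm38.p6, written 5′ to 3′ on the strand of the gene. Capitals mark GC boxes (GGGCGG on either strand, the motif of Sp factors) and E-boxes (CANNTG, the motif of basic helix-loop-helix factors). The Chrna3 stretch is chr9:55026563-55026812, reverse strand, and ends at the base before the annotated start. The Chrna7 stretch is chr7:63212570-63212776, reverse strand, and stops 43 bases before the start because an annotated exon covers the bases left out.
Chrna3: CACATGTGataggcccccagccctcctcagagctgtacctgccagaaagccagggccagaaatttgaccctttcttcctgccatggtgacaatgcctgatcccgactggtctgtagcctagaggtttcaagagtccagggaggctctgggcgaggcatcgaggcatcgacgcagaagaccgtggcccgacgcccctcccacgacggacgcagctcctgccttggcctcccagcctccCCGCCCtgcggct
Chrna7: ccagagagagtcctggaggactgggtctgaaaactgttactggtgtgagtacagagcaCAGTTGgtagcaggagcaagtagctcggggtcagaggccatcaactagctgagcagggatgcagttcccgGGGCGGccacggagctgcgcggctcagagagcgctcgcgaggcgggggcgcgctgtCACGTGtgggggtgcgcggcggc

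In the Chrna3 stretch a pair of overlapping E-boxes, CACATG and CATGTG, opened the window 250 to 243 bases before the start, and 1 GC box in reverse lay 13 to 8 bases before it. In the Chrna7 stretch the GC box lay 122 to 117 bases before the start, and the E-boxes CAGTTG and CACGTG lay 192 to 187 and 66 to 61 bases before it. Neither 250-base window held a TATA box (TATAAA) or a CCAAT box (CCAAT). GC made up 63.2% of the 250 bases before Chrna3 and 67.2% before Chrna7, against a median of 52.4% over 32851 windows. A GC box occurred in 32.7% of all windows, an E-box in 66.2%, a TATA box in 12.4% and a CCAAT box in 33.8%. Entries were found for 6 of the 8 subunits, and Chrna6 and Chrnb3 had none. Chrna4 held 3 GC boxes and 74.4% GC, the second of the annotated Chrna5 starts held 4 GC boxes, and the windows of Chrnb2 and Chrnb4 held 0.

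Chrna5 encodes the accessory alpha 5 subunit and lies at chr9:54980880-55007779 on the forward strand, 3563 bp from the end of the Chrna3 locus, which points toward it. It was close to the detection limit, at 2.53, 0.0800 and 0.0728 in Control, 0.666, 0.210 and 0.332 under Mild IOP and 0.827, 0.210 and 1.26 under Moderate IOP. The fragments behind the 3 Control values were 49.3, 1.99 and 1, so that a single Control library held almost all of the signal in its group. Mild IOP values rested on 13, 4 and 5 fragments and Moderate IOP values on 11, 5 and 20. The SD in Control was 1.42 around a mean of 0.894, and the log2 differences were −0.20, 0.10 and 0.30 (FDR = 0.93, 0.95 and 0.76, limma) for Mild IOP against Control, Moderate IOP against Control and Moderate against Mild IOP. A pseudocount of 1 compresses values this low, and with 0.1 the differences were 0.11, 0.75 and 0.64 (FDR = 0.99, 0.79 and 0.79). The library kit does not mark strand, and in the RefSeq annotation of GRCm38.p6, whose gene models reach further than the loci of the files, the ends of Chrna5 and Chrna3 overlap by 1304 bp. Reads from that overlap could not be told apart. It lies beyond the Chrna5 locus given with the estimates, which ends at 55007779. Its upper end, 55011420, is just inside the Chrna3 locus, whose lower end is 55011343.

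Chrnb4 encodes beta 4, the partner of alpha 3, and lies at chr9:55028156-55048544 on the reverse strand, 1596 bp from Chrna3. It was the only one of the 8 genes below the filter of 0.5 in mean level and was therefore not tested. Control libraries held 0.478, 0.545 and 0.359, Mild IOP libraries 0.611, 1.43 and 0.160, and Moderate IOP libraries 0.0605, 0.0113 and 0.125. The Moderate IOP libraries were below all others, but the fragments behind them summed to 2.35, against 33.9 in Control and 52.0 in Mild IOP. Without the filter, the FDR of Chrnb4 (limma) was 0.87 for Mild IOP against Control, 0.46 for Moderate IOP against Control and 0.20 for Moderate against Mild IOP. The pseudocount of 1 compresses values this low. The Moderate IOP mean was 0.143 times that of Control and 0.0895 times that of Mild IOP, with log2 differences of −0.45 and −0.64. A smaller pseudocount was not tried without the filter. Its values in Moderate IOP thus went the opposite way to those of its neighbour Chrna3, but this difference was not called.

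**Figure D2:**
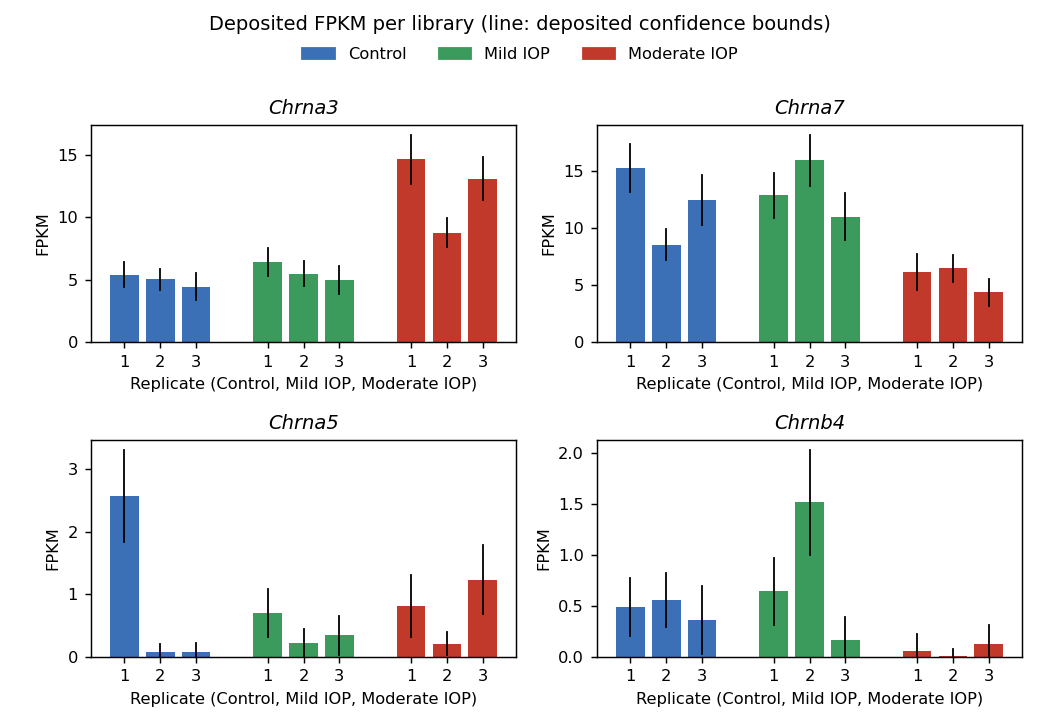
Deposited FPKM of Chrna3, Chrna7, Chrna5 and Chrnb4 in each replicate of Control, Mild IOP and Moderate IOP, as bars from 0 with lines for the deposited confidence bounds. The Chrna3 bars of Moderate IOP are taller and its Chrna7 bars shorter than all others, and the bounds of Chrna5 and Chrnb4 are wide against their bars.

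The order of the levels was the same in Control and Mild IOP for the first 6 genes, which were Chrna6, Chrnb3, Chrna7, Chrnb2, Chrna4 and Chrna3. Within this order the replicates of Chrna7 and Chrnb2 overlapped, as did those of Chrna4 and Chrna3, while the other neighbouring steps were separate. In Moderate IOP, Chrna3 came directly behind Chrnb3 and Chrna7 came behind Chrna4, and replicates of each neighbouring pair from Chrna3 through Chrnb2 and Chrna4 to Chrna7 overlapped. Together the 8 genes summed to 159 to 182 in Control, 187 to 199 under Mild IOP and 178 to 195 under Moderate IOP. Chrna6 held 60.0% to 66.4% of this sum in Control, 57.4% to 63.7% under Mild IOP and 56.4% to 66.5% under Moderate IOP, and Chrnb3 held 17.5% to 20.8%, 17.0% to 21.5% and 16.6% to 19.7%. The share of Chrna3 was 2.70% to 2.93% in Control, 2.52% to 3.27% under Mild IOP and 4.6% to 8.38% under Moderate IOP. That of Chrna7 was 4.6% to 8.31%, 5.61% to 7.57% and 2.26% to 3.50%. The ratio of Chrna3 to Chrna7 therefore ran from 0.353 to 0.587 in Control, from 0.342 to 0.498 in Mild IOP and from 1.35 to 3.01 in Moderate IOP. Its separation in Moderate IOP was fixed by the values of the 2 genes, each already apart in opposite directions, and is no further result.

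Mild IOP was compared with Control to ask how the subunits differed between the pool with a small IOP rise and the Control pool. Of the 7 tested subunits, 0 passed an FDR below 0.1 (limma), 0 had an unadjusted p below 0.05, and 0 had groups without overlap. Over all tested genes 0.399% passed the FDR (0.00767% higher and 0.391% lower), 10.2% had an unadjusted p below 0.05 and 17.1% had groups without overlap (7.94% higher and 9.13% lower). The log2 differences ran from −0.20 for Chrna5 to 0.36 for Chrna4, with a median of 0.11 against 0.006 over all tested genes. Chrna3 differed by 0.11 (−0.38 to 0.60, FDR = 0.92) and Chrna7 by 0.10 (−0.43 to 0.63, FDR = 0.93). The count of 0 held in all 19 other settings.

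Moderate IOP was compared with Control to ask the same of a larger rise, with the same Control libraries serving both comparisons. Here 1 of the 7 tested subunits passed the FDR, Chrna3, against 1.84% of all tested genes (0.951% higher and 0.889% lower), and 2 had an unadjusted p below 0.05, as had 15.3% of all tested genes. Chrna3 was higher by 1.15 on the log2 scale (standard error 0.22, 95% interval 0.66 to 1.65, FDR = 0.043, limma), in 3 of 3 libraries. Chrna7 was lower, at −0.93 (standard error 0.24, −1.46 to −0.40), in 3 of 3 libraries, but its FDR of 0.11 (limma) missed the threshold. Groups without overlap were found for 1 subunit that was higher, Chrna3, and 1 that was lower, Chrna7, as were 9.95% and 9.48% of all tested genes, 19.4% together. The median log2 difference of the 7 subunits was 0.12, against 0.004 over all tested genes. The call of Chrna3 was lost without Control replicate 1 or 2 (FDR = 0.12 each) and without Moderate IOP replicate 1 or 3 (FDR = 0.11 each), with log2 differences of 1.02 to 1.36 over all libraries left out.

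Moderate IOP was then compared with Mild IOP, which tests the difference between the pools of both pressure levels directly. Of the 7 tested subunits, 2 passed the FDR, 1 higher and 1 lower, against 10.2% of all tested genes (7.03% higher and 3.12% lower). Chrna3 was higher by 1.05 (standard error 0.22, 0.55 to 1.54, FDR = 0.023, limma) and 2.30 times as high in mean level. Chrna7 was lower, at −1.03 (standard error 0.24, −1.56 to −0.50, FDR = 0.034). Both had groups without overlap, as had 27.5% of all tested genes, 14.5% higher and 13.0% lower. The median over the 7 subunits was −0.01, against −0.016 over all tested genes. Chrna3 passed in every one of the 19 other settings, and Chrna7 in all but the fit without Mild IOP replicate 2, the library with 20.5% of its FPKM in a single gene, where it stood at −0.90 (FDR = 0.14).

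**Figure D3:**
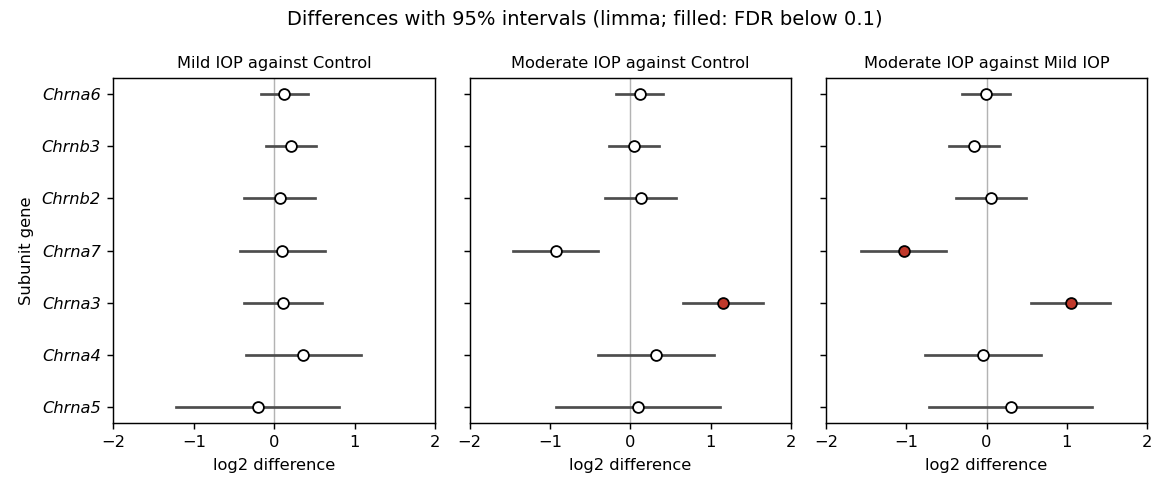
Log2 difference of the 7 tested subunits in the 3 comparisons, as points with 95% intervals from limma, filled where the FDR was below 0.1. The filled points are Chrna3 in both comparisons with Moderate IOP, at 1.15 and 1.05, and Chrna7 in Moderate against Mild IOP, at −1.03.

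Markers of retinal cells moved between the same pools. In Moderate against Mild IOP, 7 of the 12 tested RGC markers were higher at an FDR below 0.1 and 0 lower (median log2 difference 0.57). By the same threshold 3 of 6 amacrine markers were lower and 0 higher (median −0.18), and 1 of 4 Müller glia markers was higher. The 3 amacrine markers that were not called lay above 0, at log2 differences of 0.13 to 0.42, so the list was split in direction. Of all tested genes, 7.03% were called higher and 3.12% lower in this comparison. Against Control, Moderate IOP had 2 of 12 RGC markers and 1 of 4 Müller glia markers called higher. Called lower were 2 of 6 amacrine, 3 of 5 rod and 3 of 3 lens markers. The shares of all tested genes called were 0.951% higher and 0.889% lower. By direction alone, 3 of the 6 amacrine markers lay above 0 and 3 below 0 against Control. Müller glia markers summed to 36.2 to 41.3 in Control, 33.0 to 43.3 under Mild IOP and 48.8 to 81.6 under Moderate IOP. Bipolar markers summed to 19.3 to 24.0, 27.0 to 31.4 and 24.0 to 28.7 in the same order, cone markers to 4.01 to 7.97, 4.78 to 8.97 and 5.90 to 8.39, and microglial markers to 1.42 to 3.28, 1.22 to 6.39 and 0.712 to 2.04. Endothelial markers summed to at most 1.19, with Cldn5 and Cdh5 at 0 in every library, and Vsx1 of the bipolar list was also at 0 throughout. Between Moderate and Mild IOP the log2 differences of Chrna6 and Chrnb3 were −0.01 and −0.16. Which cells of the preparations held Chrna3 and Chrna7, and the part of these cell types in their values, was not tested.

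Other genes of cholinergic signalling were measured in the same libraries, 29 in all, of which 17 passed the filter on low values. In Mild IOP against Control 0 of the 17 passed the FDR in either direction, against 0.399% of all tested genes. In each comparison of Moderate IOP 0 were higher and 1 was lower. Of all tested genes, 1.84% passed in Moderate IOP against Control and 10.2% in Moderate against Mild IOP. The median log2 differences were 0.03 for Mild IOP against Control, −0.01 for Moderate IOP against Control and 0.01 for Moderate against Mild IOP.

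Among the 8 other nicotinic subunits, 2 were tested and 0 passed the FDR or an unadjusted p below 0.05 in any comparison (limma). Chrna2, the alpha 2 subunit at chr14:66140960-66152948, was the highest of them, with 15.9 ± 4.74 in Control, 15.6 ± 1.97 under Mild IOP and 14.6 ± 1.42 under Moderate IOP. Its mean thus lay between those of Chrnb3 and Chrna7 in both Control and Mild IOP. Moderate IOP differed from Control by −0.07 (−0.55 to 0.40) on the log2 scale. Chrna1, the alpha subunit of muscle, stood at 1.18 ± 0.622, 0.503 ± 0.176 and 1.12 ± 0.669, and the delta, epsilon and gamma subunits of muscle were below the filter, with Chrng at 0 in every library.

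Proteins that assemble or modulate nicotinic receptors numbered 11, of which 9 were tested and 0 passed the FDR in any comparison, while an unadjusted p below 0.05 was reached by 2 for Mild IOP against Control (10.2% of all tested genes), by 0 for Moderate IOP against Control (15.3%) and by 3 for Moderate against Mild IOP (21.8%). Ly6h, which encodes a membrane-anchored protein of the Ly6 family that lowers alpha 7 signalling, was the most abundant, with 78.8 ± 15 in Control, 55.8 ± 13.3 under Mild IOP and 77.8 ± 4.84 under Moderate IOP. All Moderate IOP libraries lay above the Mild IOP libraries for Ly6h, a log2 difference of 0.50 (0.08 to 0.92, FDR = 0.16, limma). The same separation was found for Ly6e and Vsnl1 of this list and for 14.5% of all tested genes. Vsnl1, a neuronal calcium sensor that binds the alpha 4 subunit, followed Ly6h in level with 68.0 ± 10.5, 59.7 ± 8.87 and 77.2 ± 3.72. The list held the chaperones Ric3 and Tmem35, which help alpha 7 to reach the membrane, and their log2 differences passed no test.

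Genes for the supply and breakdown of acetylcholine showed a large contrast in level. Ache, the enzyme that cleaves acetylcholine, stood at 168 ± 22.2 in Control, 174 ± 9.06 under Mild IOP and 166 ± 12.7 under Moderate IOP, above every nicotinic subunit. Its log2 differences passed no test. Slc18a3, the vesicular transporter of acetylcholine, was at 1.05 ± 0.242, 0.646 ± 0.256 and 0.989 ± 0.644, and Chat, the enzyme that makes acetylcholine, was at 0.188 ± 0.246, 0.353 ± 0.317 and 0.658 ± 0.697. Slc18a3 lies inside the Chat locus, so that unstranded reads of both may mix. These 2 genes also mark starburst amacrine cells, whose 5 markers summed to 1.20 to 1.48 in Control, 0.991 to 1.57 under Mild IOP and 1.80 to 2.06 under Moderate IOP, with Fezf1 at 0 in every library.

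Muscarinic receptors, the metabotropic receptors for acetylcholine, held the only other cholinergic gene that passed the FDR. Chrm1, the M1 receptor, stood at 17.8, 14.2 and 13.8 in Control, 13.1, 15 and 12 under Mild IOP and 7.08, 7.71 and 6.98 under Moderate IOP. As for Chrna7, all 3 Moderate IOP libraries lay below the other 6. The log2 difference was −0.97 against Control (standard error 0.17, −1.36 to −0.59, FDR = 0.034, limma) and −0.80 against Mild IOP (standard error 0.17, −1.18 to −0.41, FDR = 0.026), while Mild IOP differed from Control by −0.18 (FDR = 0.81). The call against Control was lost without Control replicate 1 (−0.87, FDR = 0.13) and that against Mild IOP without Mild IOP replicate 2 (−0.71, FDR = 0.12). Of the 5 muscarinic genes 4 were tested, and Chrm2, next in level with 5.44 ± 1.98, 8.46 ± 3.88 and 8.14 ± 4.06, passed no test.

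**Figure D4:**
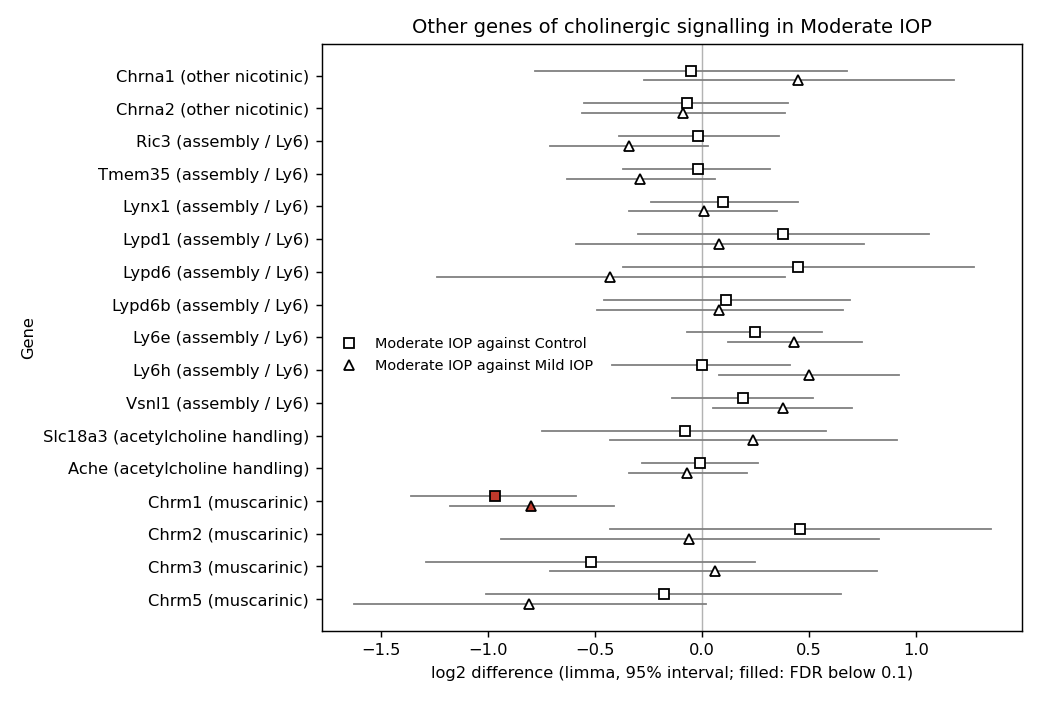
Log2 difference of the 17 tested genes of cholinergic signalling outside the 8 subunits, for Moderate IOP against Control (squares) and against Mild IOP (triangles), with 95% intervals from limma and filled symbols where the FDR was below 0.1. Only the symbols of Chrm1 are filled, at −0.97 and −0.80.

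Of 6 genes listed as neighbours of the Chrna5, Chrna3 and Chrnb4 cluster or of the Chrna6 and Chrnb3 pair, 2 were tested. Adamts7, 1 of those not tested, lies at chr9:90162978-90200102 in mouse, far from the cluster, and is no neighbour. Psma4, a proteasome subunit next to Chrna5, stood at 116, 128 and 126 in Control, 84.8, 78.1 and 123 under Mild IOP and 123, 134 and 153 under Moderate IOP. Mild IOP replicates 1 and 2 were the low libraries, and Moderate IOP differed from Mild IOP by 0.54 (standard error 0.17, FDR = 0.085, limma), a call kept in 7 of 19 other settings and lost without Control replicate 1 or 2, Mild IOP replicate 1 or 2 or any of the Moderate IOP replicates (FDR = 0.11 to 0.28). Against Control the difference was 0.14 (FDR = 0.73), where Chrna3 was higher by 1.15. Ireb2, the other tested neighbour, stood at 1.42, 2.07 and 2.19 in the 3 groups and passed no test, and Tex24 was at 0 in every library.

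Genes whose level over the 9 libraries was most like that of a subunit were sought among 8180 genes with a mean of at least 5. These correlations are descriptions, as the 9 points share 3 pools and 1 scaling. For Chrna3 the likeness was highest with Raly (r = 0.949), at group means of 16.8, 17.0 and 40.0 in Control, Mild IOP and Moderate IOP, followed by Crip2 (r = 0.948) and 1700113A16Rik (r = 0.946). For Chrna7 it was highest with Usp47 (r = 0.968), at 20.2, 21.6 and 13.7, followed by Hif1an (r = 0.963) and Ggt7 (r = 0.958). For Chrna6 it was highest with Cdip1 (r = 0.957), at 113, 118 and 118, followed by Khdrbs1 (r = 0.932) and Fam219a (r = 0.923).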

How the data were processed

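RNA was sequenced from immunopanned RGC pools of 3 groups, each split into 3 technical replicates. The authors estimated FPKM for each gene locus and library with cufflinks on mm10 and deposited them with confidence bounds. Their methods name bowtie2 as aligner and the processing notes list FastQC, Trimmomatic, TopHat2, Cufflinks and Cuffdiff. SMART-seq v4 and Nextera XT libraries do not mark strand. A batch was not given in the sources used here.

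FPKM were summed per symbol, and 2 genes with a failed estimate were left out. Each library was divided by its median-of-ratios factor, and limma 3.58.1 in R 4.3.3 fitted group means to log2(scaled FPKM + 1) of all 9 libraries, with a variance trend, for 13043 genes with a mean of at least 0.5. P-values were adjusted by Benjamini-Hochberg over these genes, with calls at an FDR below 0.1. On this scale changes of low genes are understated. Fragments were derived from confidence bounds as (2 × FPKM / (upper bound − FPKM)) squared, and depth from genes with 1 transcript in GENCODE M21 that reached 2000 nt and 100 fragments. The rest was done in Python 3.11.15 with pandas 2.3.3.

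The 8 subunits, the lists of related genes and the cell markers were chosen with earlier results of these data known. Named genes are all subunits, from each other list the genes called in any comparison and the 2 with the highest mean, and the 3 genes most like Chrna3, Chrna7 and Chrna6. Chat, Ric3, Tmem35, Ly6e, Adamts7 and the genes at 0 were named after their values were seen. Alternatives covered scaling, pseudocount, filter, failed estimates, the groups behind the variance, a replicate block, the variance trend and each library left out.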

Additional observations from a re-analysis of the deposited data

Results flagged for a closer look

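Moderate IOP and Mild IOP, each set against the same Control libraries, differed in 2 nicotinic subunits by the direct limma test between them. That test covers technical spread between libraries, so each difference is one between pools. Chrna3 differed by 1.05 on the log2 scale, with Moderate IOP the higher, and Chrna7 by −1.03, with Moderate IOP the lower. By the same test, the muscarinic receptor gene Chrm1 differed by −0.80 and Psma4, a neighbour of Chrna5, by 0.54.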

How the results depend on the processing

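Results were recomputed under 10 other settings and with each of the 9 libraries left out. The number of subunits called in Mild IOP against Control was 0 in all of them. In Moderate IOP against Control the number was 1, fell to 0 with the variance of the compared groups alone, where Chrna3 stood at 1.15 (FDR = 0.11, in a range of 0.039 to 0.11), and was 0 to 1 without single libraries, where Chrna3 ranged from 1.02 to 1.36. In Moderate against Mild IOP the number was 2 in every other setting and 1 to 2 without single libraries, where Chrna7 ranged from −1.14 to −0.88. The FDR of Chrna7 in Moderate IOP against Control was 0.10 to 0.31 over all settings and below 0.1 in none.

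Over all genes, the 52 calls of Mild IOP against Control became 24 without a filter, 11 with variance from the compared groups alone, 25 with a replicate block and 15 without a variance trend, and 15 to 183 without single libraries. The 240 calls of Moderate IOP against Control became 134 with variance from the compared groups alone, 135 with the block and 144 without the trend, and 61 to 287 without single libraries. The 1324 calls of Moderate against Mild IOP became 839 without the trend and 519 to 1399 without single libraries. The causes were not tested.

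Replicate numbers did not pair the libraries, since deviations of same-numbered libraries correlated by −0.005 to 0.044 and 0 of 9 pairs exceeded 0.1. With the replicate block Chrna3 had an FDR of 0.082 in Moderate IOP against Control and 0.037 against Mild IOP, and Chrna7 an FDR of 0.054 against Mild IOP, so the block changed no call among the subunits.

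Small differences that passed no test changed sign. Chrna5 in Mild IOP against Control was 0.11 with a pseudocount of 0.1, and Chrnb2 in Moderate against Mild IOP was −0.02 without scaling. Without single libraries, Chrna7 ran from −0.11 to 0.27 and Chrnb2 from −0.04 to 0.18 in Mild IOP against Control, Chrna5 from −0.19 to 0.34 and Chrnb2 from −0.00 to 0.25 in Moderate IOP against Control, and Chrna4 from −0.28 to 0.32, Chrna6 from −0.08 to 0.11 and Chrnb2 from −0.08 to 0.18 in Moderate against Mild IOP. The values of Chrna5 and Chrnb4 rested on 0.122 to 49.3 fragments per library and are imprecise, and with 1 pool per group no setting measures spread between animals.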
